A study of Mus musculus with 32 samples.

Results

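The transcripts of the thick ascending limb of the loop of Henle were followed through cisplatin-induced acute kidney injury (cisplatin-AKI) in 7 genes, Umod, Slc12a1, Kcnj1, Bsnd, Cldn10, Cldn16 and Cldn19. They were taken by their symbols, with earlier results of these data known, and make up 7 of the 54532 genes counted. Kidney RNA was sequenced from 32 wild-type (wt) C57bl/6 mice aged 6 to 8 weeks, in 8 groups of 4 biological replicates, 1 for each sex on each day. Kidneys were taken at Day 0 and on Days 2, 3 and 5 following 1 intraperitoneal injection of 20 mg/kg cisplatin, a platinum drug that damages kidney tubules. The labels give no treatment for the Day 0 males and cisplatin for the Day 0 females, while the study describes the Day 0 mice as healthy. The comparisons asked how these transcripts differed from Day 0 on each later day, from Day 3 to Day 5, and between male and female mice. Each library held a mixture of all kidney cells, so fewer cells of the thick limb and less RNA per cell cannot be told apart.

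The thick ascending limb takes up sodium, potassium and chloride from the tubule fluid and is impermeable to water, which dilutes the fluid and builds the salt gradient of the medulla. Slc12a1 encodes NKCC2, the apical cotransporter that loop diuretics block, and Kcnj1 encodes ROMK, the apical channel that returns potassium to the lumen. Bsnd encodes barttin, a subunit that the basolateral chloride channels need. Cldn10, Cldn16 and Cldn19 encode claudins of the tight junction: claudin-10b carries sodium between the cells, and claudin-16 and claudin-19 together serve calcium and magnesium. Umod encodes uromodulin, the abundant urinary protein that this segment secretes. Outside the thick limb, Kcnj1 is also known from the distal tubule and collecting duct, Bsnd from the thin limb, the distal tubule and intercalated cells, and a different isoform of Cldn10 from the proximal tubule.

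In the files, whose coordinates are those of GRCm38, Umod (ENSMUSG00000030963) lies at chr7:119462711-119479282 on the minus strand, Slc12a1 (ENSMUSG00000027202) at chr2:125152505-125230002 on the plus strand, Kcnj1 (ENSMUSG00000041248) at chr9:32372493-32399197 on the plus strand and Bsnd (ENSMUSG00000025418) at chr4:106483456-106492283 on the minus strand. Cldn10 (ENSMUSG00000022132) lies at chr14:118787908-118875489, Cldn16 (ENSMUSG00000038148) at chr16:26463135-26482765 and Cldn19 (ENSMUSG00000066058) at chr4:119255414-119262438, all on the plus strand. Promoter windows were then read, from 250 bases before to 50 bases after a RefSeq transcription start on GRCm38.p6. The 7 members had 8 such windows, with an entry for 6 of them and none for Bsnd. They were searched on both strands for 2 short motifs, GTTAAT and AAGGTCA, of which the latter is the site of the estrogen-related receptors. GTTAAT was found in 2 of the 8 windows and in 7.1% of all 32851 promoter windows, and AAGGTCA in 0 of the 8 and in 4.72% of all. The windows of Umod and Slc12a1, the members of the highest level, and both windows of Cldn10 are printed, since Cldn10 has 2 annotated starts whose reads the counts per gene add together. Capitals mark GTTAAT or its reverse complement.
Umod, chr7:119479213-119479512, minus strand: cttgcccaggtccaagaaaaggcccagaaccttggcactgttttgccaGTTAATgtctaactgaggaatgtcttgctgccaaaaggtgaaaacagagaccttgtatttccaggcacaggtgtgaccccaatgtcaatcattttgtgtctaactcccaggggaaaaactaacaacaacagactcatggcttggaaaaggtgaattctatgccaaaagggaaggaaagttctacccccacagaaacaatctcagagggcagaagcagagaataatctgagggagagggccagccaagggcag
Slc12a1, chr2:125152350-125152649, plus strand: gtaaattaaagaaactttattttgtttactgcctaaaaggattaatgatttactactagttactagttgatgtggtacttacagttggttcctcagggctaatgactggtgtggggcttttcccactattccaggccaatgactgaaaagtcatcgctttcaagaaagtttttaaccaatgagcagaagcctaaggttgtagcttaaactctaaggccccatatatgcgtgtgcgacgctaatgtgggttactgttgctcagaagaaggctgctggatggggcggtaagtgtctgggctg
Cldn10, upstream start, chr14:118787621-118787920, plus strand: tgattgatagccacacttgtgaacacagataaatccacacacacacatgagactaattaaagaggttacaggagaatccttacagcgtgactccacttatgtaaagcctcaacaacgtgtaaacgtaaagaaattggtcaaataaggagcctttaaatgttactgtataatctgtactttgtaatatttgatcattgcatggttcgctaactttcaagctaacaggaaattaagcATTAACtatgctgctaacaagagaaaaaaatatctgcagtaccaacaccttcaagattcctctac
Cldn10, downstream start, chr14:118854700-118854999, plus strand: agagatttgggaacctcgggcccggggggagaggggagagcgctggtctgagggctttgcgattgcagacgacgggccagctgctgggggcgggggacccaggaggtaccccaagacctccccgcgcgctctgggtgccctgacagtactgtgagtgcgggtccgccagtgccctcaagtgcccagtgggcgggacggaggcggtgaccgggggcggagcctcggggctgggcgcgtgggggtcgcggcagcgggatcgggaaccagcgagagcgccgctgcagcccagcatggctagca
The window of Umod and the upstream window of Cldn10 each held the letters in 1 place. The 2 starts of Cldn10 differ in base composition, with 36% G or C in the upstream window and 72% in the downstream window.

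The libraries held between 16502107 and 35961325 counts, and the lowest count of any member in any library was 29 (Cldn16). Each member passed the filter on low counts in every comparison. Levels are given as FPKM, read counts scaled to gene length and to an effective library size, which can be set side by side between genes. At Day 0 the library of mouse 4 stood apart in both sexes. It had the lowest level of its group in 7 of 7 members. Its summed member level was 197 FPKM in the male and 206 FPKM in the female against 368 to 809 FPKM in the other 6 libraries. The same libraries had 24% and 19.7% of counts on mitochondrial genes, against 4.49% to 10.7% in the others, and a summed level of 3 adipocyte genes of 252 and 161 FPKM against 44.8 to 78.8 FPKM. At Day 5 the mitochondrial share was 42.5%, 78.9%, 79.8% and 79.7% in male mice 1 to 4 and 31.6%, 77.9%, 22.2% and 9.30% in female mice 1 to 4. Xist, the transcript of the inactive X chromosome, had 4153 counts in the library labelled male Day 5 mouse 1, against 59 to 260 in the other male and 1323 to 7691 in the female Day 5 libraries. Scaled to 1000000 counts outside mitochondrial genes, 4 Y-linked genes stood at 34.1 in this library, at 103 to 144 in the other male and at 0 in the female Day 5 libraries. At Day 0 they stood at 9.18 in female mouse 1 and 0.146 to 2.51 in the other females, against 0 in all later female libraries and 89.3 to 106 in the Day 0 males. Xist on this scale stood at 18.3 in male Day 0 mouse 4 and at 0 to 3.36 in the other males of that day. The library of female Day 0 mouse 2 held hepatocyte genes at a summed 5662 FPKM. The summed level of 4 adrenal cortex genes was 3.49 to 247 FPKM in female Day 3 and 61.6 to 166 FPKM in female Day 5 libraries. It was 0.83 to 9.35 and 4.12 to 21.8 FPKM in the male libraries of these days and 0.703 to 30.0 FPKM in female Day 0 libraries. Every comparison was also fitted without each library in turn and without mitochondrial transcripts, and the interactions and the sexes at Day 0 without mouse 4 of both Day 0 groups. Beyond these fits the part of these differences in the results below was not tested.

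Umod had the highest level of the 7 members in 32 of 32 libraries, and Cldn16 the lowest in 24. At Day 0 the male means ran from 353 ± 255 FPKM (SD, n = 4) for Umod over 65.6 ± 35.7 for Slc12a1, 57.7 ± 13 for Cldn10, 33.0 ± 7.59 for Kcnj1, 19.6 ± 2.71 for Bsnd and 7.18 ± 3.45 for Cldn19 to 5.22 ± 2.61 for Cldn16. Highest and lowest of the 32 libraries differed 11.7-fold for Umod, 11.7-fold for Slc12a1, 12.1-fold for Cldn16 and 12.3-fold for Cldn19, but 3.3-fold for Kcnj1, 4.15-fold for Bsnd and 4.07-fold for Cldn10. Male Day 0 mouse 4 was the lowest library of Slc12a1, Kcnj1, Cldn16 and Cldn19, at 17.7, 21.9, 1.39 and 2.46 FPKM. Outside mouse 4 of both Day 0 groups, their lowest levels were 26.3, 23.3, 3.76 and 5.85 FPKM. Part of their spread thus rests on these libraries. When the 8 groups were ordered by mean FPKM, the libraries of neighbouring groups overlapped for all members, except for Umod between female Day 2 and male Day 2 and for Cldn16 between female Day 2 and male Day 3.

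**Figure D1:**
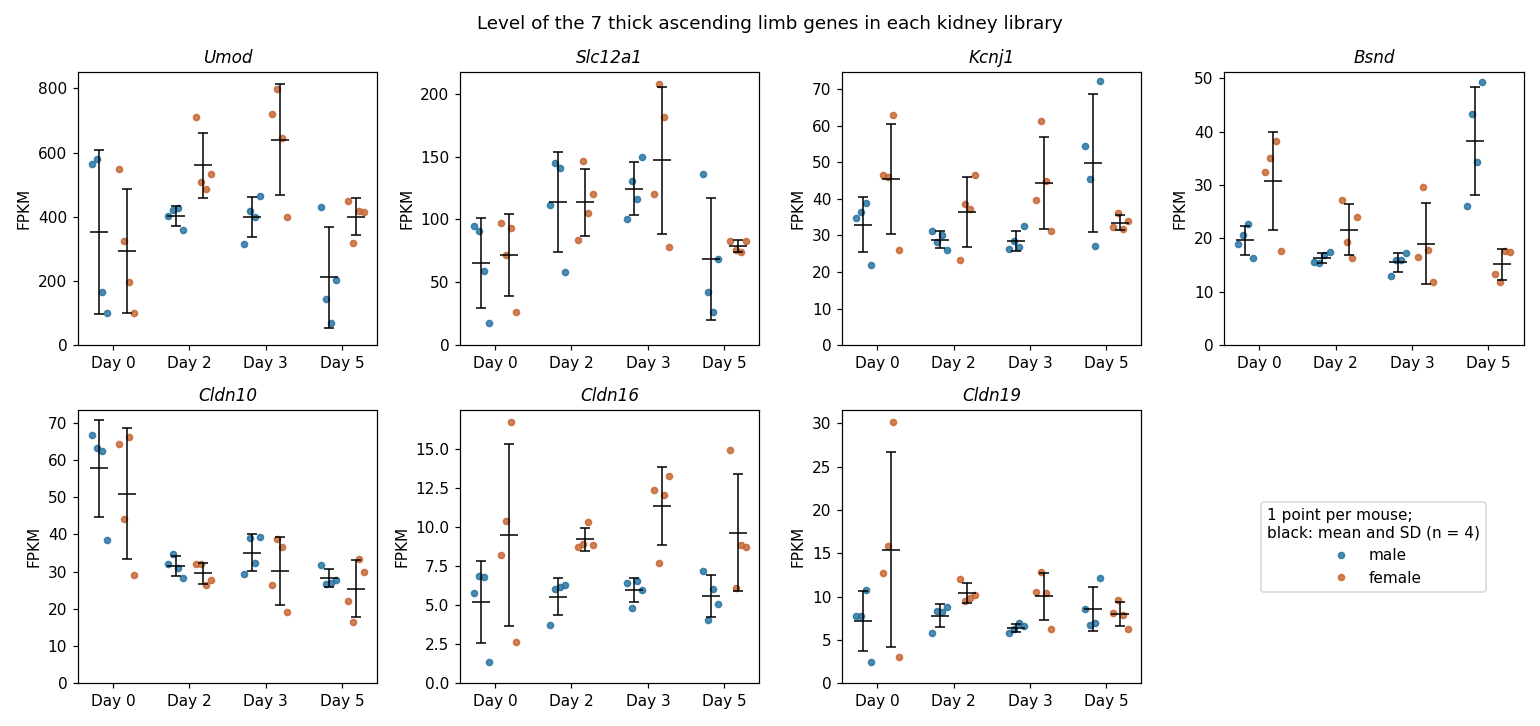
Level of each member in FPKM (vertical axes, from 0) on each day (horizontal axes); points are mice, blue for male and orange for female, and black bars give the mean and SD of 4 mice. Cldn10 is highest at Day 0 in both sexes, Bsnd is highest in male mice at Day 5, and Cldn16 lies lower in male mice at Day 2 and Day 3.

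Slc12a1 and Kcnj1 are the genes of apical salt entry. In male mice 1 to 4, Slc12a1 stood at 94.5, 91.2, 58.8 and 17.7 FPKM at Day 0, at 111, 145, 141 and 58.1 FPKM at Day 2, at 100.2, 131, 116 and 150.0 FPKM at Day 3, and at 137, 42.6, 26.3 and 68.3 FPKM at Day 5. In female mice it stood at 97.1, 71.8, 93.2 and 26.1 FPKM at Day 0, at 83.3, 147, 105 and 120.5 FPKM at Day 2, at 120.3, 208, 181 and 78.3 FPKM at Day 3, and at 82.8, 75.7, 74.3 and 83.1 FPKM at Day 5. The male Day 3 libraries all lay above the male Day 0 libraries, as those of 21.1% of the 15908 genes tested did in that direction, while the other groups overlapped Day 0. Slc12a1 passed the test in none of the 6 comparisons with Day 0. Its log2 fold change was 0.93 ± 0.44 (SE) in male and 1.03 ± 0.44 in female mice at Day 3 (edgeR quasi-likelihood test, Benjamini-Hochberg adjusted p = 0.151 and 0.150). At Day 5 it was 0.04 ± 0.60 and 0.14 ± 0.37 (adjusted p = 0.974 and 0.867). By mean level the order of its groups was female Day 3, male Day 3, female Day 2, male Day 2, female Day 5, female Day 0, male Day 5 and male Day 0.

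Kcnj1 stood at 34.7, 36.4, 38.9 and 21.9 FPKM in male mice at Day 0, at 25.9 to 31.1 FPKM at Day 2, at 26.3, 28.4, 26.9 and 32.5 FPKM at Day 3, and at 54.3, 45.4, 27.1 and 72.2 FPKM at Day 5. In female mice it stood at 46.6, 45.9, 63.0 and 26.1 FPKM at Day 0, at 23.3 to 46.6 FPKM at Day 2, at 39.8, 61.3, 44.9 and 31.2 FPKM at Day 3, and at 31.6 to 36 FPKM at Day 5. In the male Day 5 group, 3 of 4 libraries lay above all male Day 3 libraries and mouse 3 lay among them. Kcnj1 rose in male mice from Day 3 to Day 5, with a log2 fold change of 0.81 ± 0.26 (edgeR, adjusted p = 0.0351), whereas in female mice the value was -0.40 ± 0.19 (adjusted p = 0.443). The male call held in 2 of the 8 fits that leave out 1 mouse. These were the fits without the library labelled male Day 5 mouse 1 (0.73, adjusted p = 0.0346) and without male Day 5 mouse 3 (1.0, adjusted p = 0.00897). Without male Day 5 mouse 4 the value was 0.58 (adjusted p = 0.0876). Without each male Day 3 mouse or Day 5 mouse 2 it was 0.76 to 0.87 with an adjusted p of 0.0633 to 0.0896. Markers of 2 other segments, of which Kcnj1 is also a gene, moved with the male rise. The summed level of 5 principal cell genes was 550.1 to 1068 FPKM at Day 5 against 303 to 392 FPKM at Day 3, with 2 of the 4 genes tested higher. That of 4 distal convoluted tubule genes was 79.0 to 333 against 25.9 to 56.5 FPKM, with 3 of 4 higher. Their part in the Kcnj1 values was not tested. Against Day 0 the values of Kcnj1 lay between -0.43 and 0.57 in both sexes and on each day, and none passed. Without male Day 0 mouse 4 the male Day 3 value went from -0.21 to -0.35 and passed (adjusted p = 0.0382), in a fit that called 34.7% of all genes. Its groups were ordered male Day 5, female Day 0, female Day 3, female Day 2, female Day 5, male Day 0, male Day 2 and male Day 3.

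Of the members, Bsnd serves chloride exit, and its transcript was the only one whose change from Day 0 passed a test of difference between male and female mice. In male mice Bsnd stood at 19.0, 20.6, 22.7 and 16.2 FPKM at Day 0, at 15.6, 15.4, 16.9 and 17.4 FPKM at Day 2, at 13, 16, 16 and 17.2 FPKM at Day 3, and at 26.1, 43.2, 34.4 and 49.3 FPKM at Day 5. In female mice it stood at 32.4, 35.0, 38.3 and 17.6 FPKM at Day 0, at 27.1, 19.2, 16.3 and 23.9 FPKM at Day 2, at 16.5, 29.6, 17.9 and 11.9 FPKM at Day 3, and at 13.4, 11.9, 17.7 and 17.5 FPKM at Day 5. All 4 male Day 5 libraries lay above every male library of the earlier days and above every female Day 5 library. Of all genes tested, 13.4% lay wholly above Day 0, 19.3% wholly above Day 3 and 4.71% wholly above the female libraries. Female Day 5 overlapped female Day 0 through Day 0 mouse 4. Groups were ordered male Day 5, female Day 0, female Day 2, male Day 0, female Day 3, male Day 2, male Day 3 and female Day 5.

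Bsnd rose in male mice from Day 3 to Day 5 by 1.30 ± 0.20 on the log2 scale (edgeR, adjusted p = 0.00298). The call held in 8 of the 8 fits that leave out 1 mouse, at 1.16 to 1.42. Against Day 0 Bsnd rose in male mice at Day 5 by 0.94 ± 0.23 (adjusted p = 0.0229). The value was 1.09 when the library labelled male Day 5 mouse 1 was left out (adjusted p = 0.0042), in a fit that called 26% of all genes. The call was lost without male Day 0 mouse 1 or 2 or male Day 5 mouse 2, 3 or 4, at 0.80 to 0.98 (adjusted p = 0.0564 to 0.0714). In female mice at Day 5 the value was -1.01 ± 0.27 (adjusted p = 0.154), and it passed only without female Day 0 mouse 4 among the 8 fits (-1.20, adjusted p = 0.0138). That fit called 12.6% of all genes. The difference of the male and female changes from Day 0 to Day 5 was 1.93 ± 0.35 on the log2 scale and passed (interaction term in edgeR, adjusted p = 0.033), as 0.243% of the 16907 genes tested did in either direction and 0.0887% upward. At Day 2 and Day 3 it was 0.21 ± 0.31 and 0.34 ± 0.36 (adjusted p = 1.0 and 0.955). The Day 5 difference lay between 1.81 and 2.12 when each mouse was left out, and it passed in 5 of 16 fits. These were the fits without male Day 0 mouse 3 or 4, without female Day 0 mouse 4, without female Day 5 mouse 2, and without the library labelled male Day 5 mouse 1. In the other 11 fits the adjusted p was 0.0584 to 0.0980. Over all 16 fits 0% to 6.74% of all genes were called, with at most 1 gene called in 8 of them. The difference was 1.96 without mitochondrial transcripts (adjusted p = 0.0303).

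Among male Day 5 libraries, the one labelled mouse 1, with a mitochondrial share of 42.5%, had the lowest Bsnd level. The other 3 differed little in that share, with 78.9% to 79.8%, and had 34.4 to 49.3 FPKM. Within this group any relation of the 2 measures thus rests on 1 library. In the female Day 5 group the library with 77.9%, mouse 2, had the lowest level, 11.9 FPKM. Every male library of Day 0, Day 2 and Day 3 had a lower share than the male Day 5 libraries, at most 24%. Each also had a lower Bsnd level, at most 22.7 FPKM. Day and mitochondrial share thus cannot be told apart in male mice. Beyond the fits without mitochondrial transcripts, the part of this share in the Bsnd values was not tested. Markers of other cells also differed between Day 5 and Day 3 in male mice, with those of the principal cell and the distal convoluted tubule at the values given for Kcnj1. The summed level of 4 intercalated cell genes was 85.1 to 143 FPKM at Day 5 against 32.8 to 39.7 FPKM at Day 3, with 4 of 4 genes higher by the test. That of 3 erythroid genes was 233 to 6386 against 0.518 to 2.29 FPKM and that of 3 adipocyte genes 89.7 to 321 against 32 to 40.6 FPKM, with 3 of 3 higher in each list. That of 4 leukocyte genes overlapped, at 21.8 to 147 against 15.7 to 28.7 FPKM, with 2 of the 3 tested higher. The summed level of 6 proximal tubule genes was 182 to 1267 FPKM at Day 5 against 1845 to 2316 FPKM at Day 3, with 4 of 6 lower. No marker of these 7 lists was at 0 in every library of a group. Their part in the Bsnd values was not tested.

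**Figure D2:**
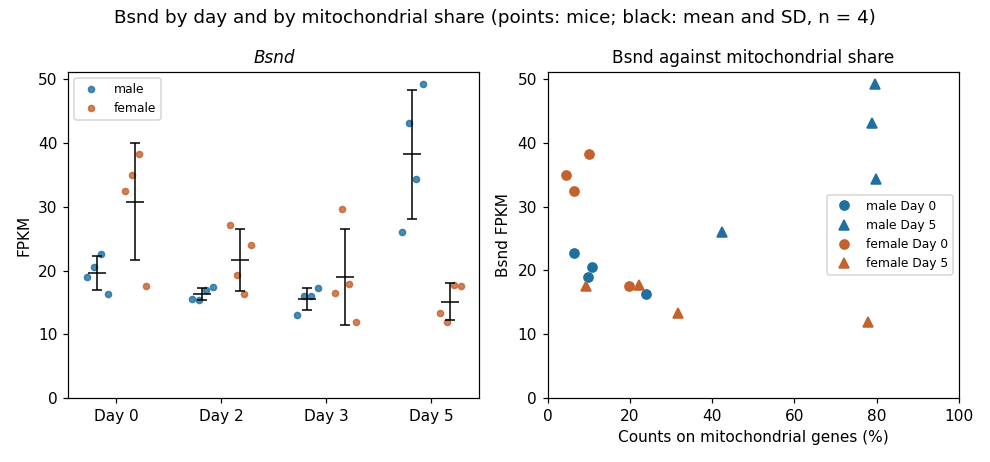
Level in FPKM of Bsnd by day (points are mice, blue for male and orange for female; black bars are mean and SD, n = 4), and Bsnd against the percent of counts on mitochondrial genes at Day 0 (circles) and Day 5 (triangles). All 4 male Day 5 libraries lie above the other male libraries for Bsnd, and the female Day 5 library at 77.9% has the lowest Bsnd of its group.

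Of the transcripts of the claudins, which serve paracellular transport, that of Cldn10 passed the test against Day 0 in male mice. In male mice Cldn10 stood at 66.6, 63.3, 62.5 and 38.5 FPKM at Day 0, at 32.1, 34.9, 31.0 and 28.4 FPKM at Day 2, at 29.4, 39.1, 32.3 and 39.4 FPKM at Day 3, and at 31.9, 26.7, 27.0 and 27.7 FPKM at Day 5. In female mice it stood at 64.3, 44.3, 66.2 and 29.1 FPKM at Day 0, at 32.1, 32, 26.5 and 27.7 FPKM at Day 2, at 26.4, 38.7, 36.7 and 19.1 FPKM at Day 3, and at 22.2, 16.4, 33.3 and 30.0 FPKM at Day 5. The male Day 2 and Day 5 libraries lay below all male Day 0 libraries, as those of 12% and 13.9% of genes tested did, and the remaining groups overlapped Day 0 only through its mouse 4. Its groups were ordered male Day 0, female Day 0, male Day 3, male Day 2, female Day 3, female Day 2, male Day 5 and female Day 5.

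Cldn10 fell in male mice by 0.86 ± 0.19 on the log2 scale at Day 2, by 0.72 ± 0.19 at Day 3 and by 1.05 ± 0.22 at Day 5 (edgeR, adjusted p = 0.0466, 0.0302 and 0.0159). The Day 2 call was lost without the filter on low counts (-0.83, adjusted p = 0.0567). Cldn10 was the only member to pass at Day 2 and at Day 3, where 1.35% of 16051 and 13.1% of 15908 genes tested were lower by the test. At Day 5 it passed beside Bsnd, where 10.2% of 14969 genes were lower and 8.98% higher. In female mice the values were -0.77 ± 0.27, -0.75 ± 0.31 and -0.98 ± 0.31 (adjusted p = 0.119, 0.139 and 0.204). Its interaction terms lay between -0.13 and 0.01 with standard errors of 0.33 to 0.40 (adjusted p = 0.953 to 1.0), so a difference between the sexes was not shown. All 6 comparisons rest on the Day 0 libraries of their sex. Among male mice the call was lost at each of the 3 days without Day 0 mouse 1 or 2 (-1.0 to -0.65, adjusted p = 0.0522 to 0.11). It was also lost without each mouse of Day 2 or Day 3 (-0.91 to -0.64, adjusted p = 0.0654 to 0.152), and at Day 5 without mouse 2, 3 or 4 (-1.03 to -1.02, adjusted p = 0.0514 to 0.0591). With the library labelled male Day 5 mouse 1 left out it was -1.11 (adjusted p = 0.00876), in a fit that called 26% of all genes. Without Day 0 mouse 4 it passed in both sexes on all 3 days, at -1.21 to -0.86 in male and -1.17 to -0.94 in female mice (adjusted p = 0.00566 to 0.0228). In these fits 14%, 34.7% and 21.7% of all genes were called in male and 28.3%, 39.1% and 12.6% in female mice. The 6 proximal tubule genes, which belong to the segment that also expresses an isoform of Cldn10, had a median log2 fold change of 0.06, 0.16 and -1.88 in male mice at Day 2, Day 3 and Day 5. By the test, 0, 1 and 0 of these genes were higher and 0, 0 and 2 lower. The libraries of 2 other lists lay wholly below Day 0 in male mice at Day 2 and Day 3. The 4 distal convoluted tubule genes had a summed 114 to 230 FPKM at Day 0, 42.8 to 86.2 FPKM at Day 2 and 25.9 to 56.5 FPKM at Day 3, with 1 and 3 of 4 lower by the test. The 3 erythroid genes had 478 to 2478, 8.35 to 183 and 0.518 to 2.29 FPKM, with 0 and 3 of 3 lower. At Day 5 both lists overlapped Day 0. Their part in the Cldn10 values was not tested.

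Cldn16 stood at 5.77, 6.90, 6.83 and 1.39 FPKM in male mice at Day 0, at 3.76, 6.03, 6.19 and 6.27 FPKM at Day 2, at 6.43, 4.84, 6.57 and 6.01 FPKM at Day 3, and at 7.20, 4.07, 6.02 and 5.06 FPKM at Day 5. In female mice it stood at 8.22, 10.4, 16.7 and 2.63 FPKM at Day 0, at 8.71, 8.95, 10.3 and 8.87 FPKM at Day 2, at 12.4, 7.69, 12 and 13.3 FPKM at Day 3, and at 14.9, 6.07, 8.85 and 8.75 FPKM at Day 5. Within either sex the libraries of every later day overlapped those of Day 0, and its log2 fold changes against Day 0 lay between -0.01 and 0.28 with standard errors of 0.41 to 0.47 (adjusted p = 0.691 to 0.990). The order of the groups put the 4 female groups first, at Day 3, Day 5, Day 0 and Day 2, and then the male groups at Day 3, Day 5, Day 2 and Day 0.

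Cldn19, which pairs with claudin-16, stood at 7.77, 7.73, 10.8 and 2.46 FPKM in male and 12.7, 15.9, 30.1 and 3.05 FPKM in female mice at Day 0. It stood at 5.86 to 8.85 FPKM in male and 9.48 to 12.1 FPKM in female mice at Day 2, at 5.85 to 6.95 and 6.29 to 12.8 FPKM at Day 3, and at 6.69 to 12.1 and 6.25 to 9.59 FPKM at Day 5. The log2 fold changes against Day 0 were 0.14 ± 0.36, -0.16 ± 0.35 and 0.23 ± 0.39 in male and -0.53 ± 0.49, -0.61 ± 0.53 and -0.93 ± 0.50 in female mice at Day 2, Day 3 and Day 5 (edgeR, adjusted p = 0.394 to 0.823). Without Day 0 mouse 4, female Cldn19 passed on all 3 days, at -0.87, -0.95 and -1.27 (adjusted p = 0.0354, 0.0418 and 0.0191), and male Cldn19 at Day 3, at -0.44 (adjusted p = 0.0431). Gm12927, an antisense gene that overlaps Cldn19, was listed at 0.451 to 36.4 FPKM, and whether the counting used strand is not given in the sources used here, so reads of the pair may not be told apart. Its groups were ordered female Day 0, female Day 2, female Day 3, male Day 5, female Day 5, male Day 2, male Day 0 and male Day 3.

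Uromodulin transcripts (Umod) stood at 565, 579.7, 167 and 99.1 FPKM in male mice at Day 0, at 401, 422, 428 and 358 FPKM at Day 2, at 316, 417, 400.2 and 465 FPKM at Day 3, and at 431, 144, 68.5 and 202 FPKM at Day 5. Among females it stood at 547, 324, 196 and 101 FPKM at Day 0, at 710.1, 509.7, 486 and 533 FPKM at Day 2, at 719, 798, 646 and 398 FPKM at Day 3, and at 449.7, 319, 419 and 415 FPKM at Day 5. Male Day 0 mice 1 and 2 lay above all later male libraries, and Day 0 mice 3 and 4 of either sex lay below all Day 2 and Day 3 libraries of their sex. Female Day 0 mouse 1 lay within the range of female Day 2. The log2 fold changes against Day 0 were 0.19 ± 0.51, 0.18 ± 0.52 and -0.77 ± 0.69 in male mice (edgeR, adjusted p = 0.822, 0.819 and 0.451). In the other sex they were 0.95 ± 0.47, 1.12 ± 0.49 and 0.45 ± 0.46 (adjusted p = 0.233, 0.156 and 0.641), and no call passed. From Day 3 to Day 5 the male values of Umod and Slc12a1 were -0.91 ± 0.47 and -0.85 ± 0.44 (both adjusted p = 0.151). With the library labelled male Day 5 mouse 1 left out, which lay near the Day 3 libraries, both fell in male mice, by 1.56 and by 1.47 on the log2 scale (adjusted p = 0.00223 and 0.00185). Then 5 of the 7 members passed, Umod, Slc12a1 and Cldn10 lower and Kcnj1 and Bsnd higher, in a fit that called 55.2% of all genes. The order of the groups of Umod was female Day 3, female Day 2, male Day 2, female Day 5, male Day 3, male Day 0, female Day 0 and male Day 5.

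**Figure D3:**
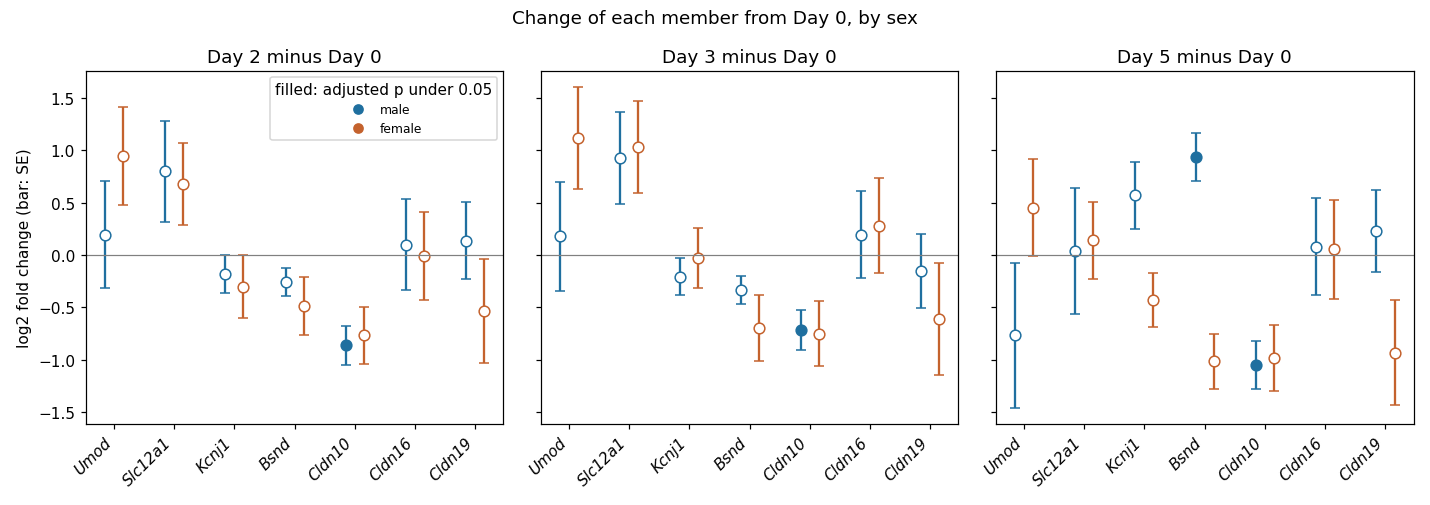
Log2 fold change of each member against Day 0 of the same sex (vertical axis; bars are SE of the edgeR fit on 4 against 4 mice) at Day 2, Day 3 and Day 5, in blue for male and orange for female mice; filled points have an adjusted p under 0.05. The filled points are Cldn10 below 0 on all 3 days and Bsnd above 0 at Day 5, all in male mice.

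Counted over the 7 members, 1, 1 and 2 passed against Day 0 in male mice on the 3 days in turn, beside 3.16%, 24.5% and 19.2% of all genes tested. Without male Day 0 mouse 4, 4 members passed at Day 3, all lower than at Day 0, namely Cldn10, Kcnj1, Cldn19 and Bsnd (-0.41, adjusted p = 0.0342), where 34.7% of all genes were called. In female mice edgeR called 0, 0 and 0 members, with 1, 3 and 2 at an unadjusted p under 0.05 and 0, 0 and 1 by DESeq2 (Bsnd at Day 5). Of all genes tested, 1.93%, 5.54% and 0.258% were called, 25.3%, 30.7% and 15.7% had an unadjusted p under 0.05, and DESeq2 called 10.7%, 16.7% and 3.79%. Without female Day 0 mouse 4, 3 members passed at each day, Bsnd, Cldn10 and Cldn19, all lower than at Day 0, where 28.3%, 39.1% and 12.6% of all genes were called. Leaving out each of the other 7 mice in turn, 0.125% to 1.93%, 0% to 3.15% and 0.0483% to 0.298% of all genes were called. At Day 3 at most 1 gene was called in 6 of these 7 fits. From Day 3 to Day 5, 2 members passed in male mice, both higher (20.9% of 15654 genes were, with 37.9% called in either direction), and 0 in female mice, with 2 at an unadjusted p under 0.05 and 0 by DESeq2, beside 0% of 16794 genes called, 11.7% at an unadjusted p under 0.05 and 0.252% called by DESeq2. The median log2 fold change of the members against Day 0 was 0.10, -0.16 and 0.08 in male and -0.30, -0.03 and -0.43 in female mice at Day 2, Day 3 and Day 5, beside medians of 0.02 to 0.04 over all genes. No member was a DEG by the study's threshold (absolute log2 fold change over 1.5 with adjusted p under 0.05) in any comparison of 2 groups. Against Day 0 such genes made up 0.716%, 3.72% and 7.53% of all tested in male and 1.41%, 2.48% and 0.228% in female mice. From Day 3 to Day 5 they made up 9.64% in male and 0% in female mice, and between the sexes 0.362%, 0.813%, 1.93% and 0.236% on the 4 days. The interaction of Bsnd at Day 5 was past this threshold, as was that of 0.231% of genes.

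Between male and female mice of the same day, the lowest adjusted p of a member was that of Cldn16 at Day 3, while the differences of Bsnd at Day 5 (1.32) and Cldn19 at Day 0 (-1.09, adjusted p = 0.780) were larger. At Day 3 Cldn16 was lower in male mice by 0.95 ± 0.18 on the log2 scale (5.96 ± 0.783 against 11.4 ± 2.50 FPKM; edgeR, adjusted p = 0.00649) with no overlap between the groups, as in 11.7% of genes tested. The call held in 8 of the 8 fits that leave out 1 mouse, at 0.86 to 1.09 lower. At Day 2 the groups again did not overlap, with 5.56 ± 1.21 against 9.22 ± 0.755 FPKM and a log2 fold change of -0.74 ± 0.19 (adjusted p = 0.0888; DESeq2 called it). At Day 0 and Day 5 the values were -0.84 ± 0.60 and -0.79 ± 0.31 (adjusted p = 0.855 and 0.202). The difference at Day 3 did not pass in a fit over all 8 groups, which shares 1 estimate of spread with Day 0 and Day 5 (-0.92, adjusted p = 0.374). Since the interaction terms of Cldn16 lay between -0.11 and 0.08 with standard errors of 0.64 to 0.70 (adjusted p = 0.992 to 1.0), a change of this difference with time was not shown.

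At Day 3, 4 members were lower in male mice, as were 10.7% of 16673 genes tested, with 21.3% called in either direction. The others were Umod (lower by 0.70 ± 0.21 than in female mice), Kcnj1 (by 0.65 ± 0.18) and Cldn19 (by 0.66 ± 0.19) (edgeR, adjusted p = 0.0393, 0.0342 and 0.037). Their libraries overlapped between the sexes through female mouse 4, the lowest female library of these 3 genes. These 3 calls were lost without the filter on low counts (adjusted p = 0.0895 to 0.123) and in 1 fit over all 8 groups (adjusted p = 0.348 to 0.730). Without each of the 4 male mice or female mouse 1 or 3, Cldn16 alone passed, and the values of the other 3 members lay between -0.78 and -0.60 (adjusted p = 0.0525 to 0.0964). Without female mouse 2 Umod was lost (-0.57, adjusted p = 0.0626), and without female mouse 4 all 4 passed at -0.87 to -0.79, in a fit that called 17% of all genes. Beside them, 4 of the 6 proximal tubule genes were higher in male mice and 3 of the 4 principal cell genes tested were lower. At Day 2, 0 members passed by edgeR, with 4 at an unadjusted p under 0.05 and 1 by DESeq2. Of 16608 genes 1.47% were called and 15% had an unadjusted p under 0.05, and DESeq2 called 4.38%. The libraries of Umod, Cldn16 and Cldn19 did not overlap and lay lower in male mice, as those of 4% of genes tested did. At Day 0, edgeR called 0 members and DESeq2 0, while 1 had an unadjusted p under 0.05, beside 0.449% of 16042 genes called, 8.04% at an unadjusted p under 0.05 and 2.09% called by DESeq2. At Day 5 Bsnd was higher in male mice by 1.32 ± 0.23 (adjusted p = 0.0498), with 0.276% of 15237 genes called and 0.217% called higher. It was lost with DESeq2 size factors, with at least 10 counts in every library and without mitochondrial transcripts, at 1.32 to 1.35 (adjusted p = 0.0501 to 0.0621). The call held in 2 of 8 fits that leave out 1 mouse, at 1.52 with the library labelled male Day 5 mouse 1 left out (adjusted p = 0.000979) and at 1.22 without female Day 5 mouse 2 (adjusted p = 0.0469). Without each other mouse it was 1.18 to 1.44 (adjusted p = 0.0945 to 0.177). Umod at Day 5 was -0.93 ± 0.47 (adjusted p = 0.288). With the library labelled male Day 5 mouse 1 left out, Umod was lower by 1.5 in male than in female mice (adjusted p = 0.0153). This was the fit that also gave the Bsnd value of 1.52 and called 17% of all genes against 0.276% with all mice. The interaction terms called 0 members at Day 2 and 0 at Day 3, with 0 at an unadjusted p under 0.05 and 0 by DESeq2 at each. Of all genes, 0% of 17467 and 0.0114% of 17598 were called. An unadjusted p under 0.05 was found for 4.23% and 7.11%, and DESeq2 called 0.127% and 0.4%.

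**Figure D4:**
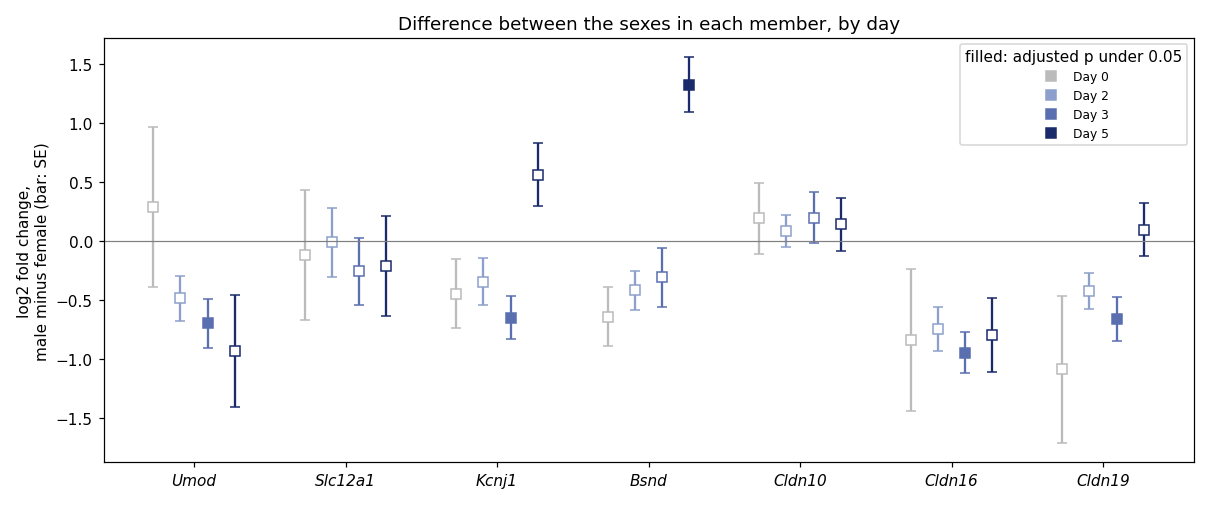
Log2 fold change of each member between male and female mice of the same day (vertical axis; below 0 means lower in male mice; bars are SE, n = 4 against 4), with 1 square per day from light (Day 0) to dark (Day 5) and filled squares at an adjusted p under 0.05. Cldn16 lies below 0 on all 4 days and is filled at Day 3, and Bsnd lies below 0 until Day 3 and above 0 at Day 5.

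Across the libraries the members did not move as 1 group. Pearson's r of log2 CPM over the 32 libraries, a description of libraries that share depth and cell mixture, ran from -0.26 to 0.86 over the 21 pairs of members, with a median of 0.37. It was highest for Umod and Slc12a1 (0.86) and for Cldn16 and Cldn19 (0.74), and lowest for Umod and Bsnd (-0.26). When each library was taken as its deviation from its group mean, r ran from 0.26 to 0.84 with a median of 0.57, so that within groups the 21 pairs were all positive. These values include mouse 4 of both Day 0 groups, which was lowest of its group in all 7 members.

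**Figure D5:**
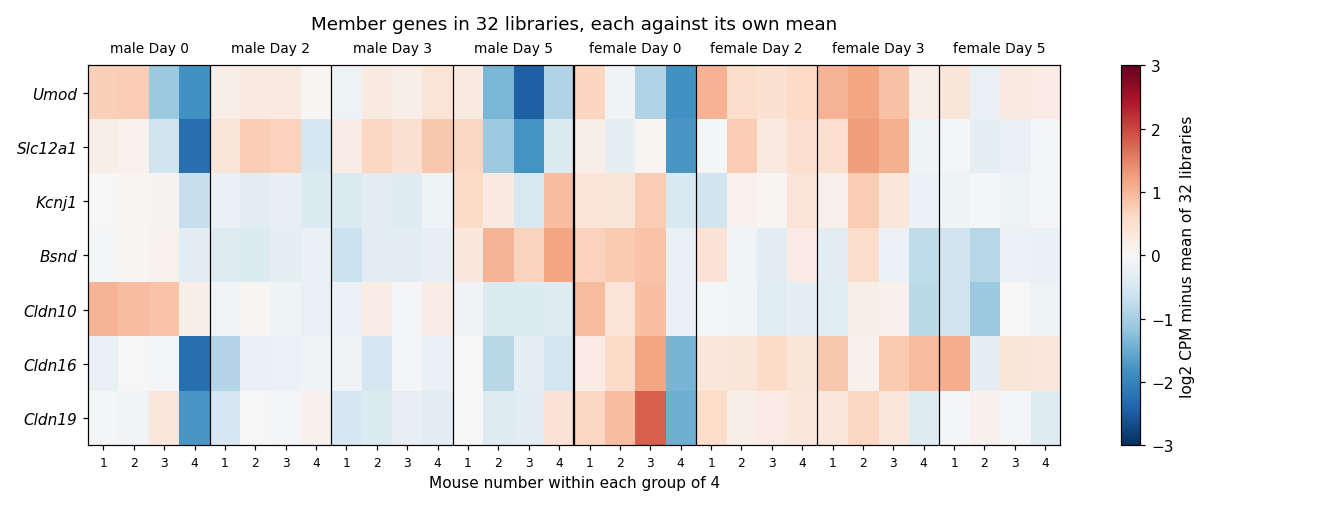
Log2 CPM of each member (rows) in each library (columns, 4 mice per group) minus the gene's mean over the 32 libraries, from blue (lower) to red (higher), with a thick line between male and female mice. Mouse 4 of male Day 0 is low for Umod, Slc12a1, Cldn16 and Cldn19, as is mouse 4 of female Day 0, and male Day 5 mice 2 to 4 are low for Umod and high for Bsnd.

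Other genes of the segment were taken from 6 lists of 42 genes, of which 38 to 41 were tested in a comparison. Against Day 0, 2 were higher and 0 lower in male mice at Day 2, 6 higher and 4 lower at Day 3, and 7 higher and 3 lower at Day 5. These counts are of 39 genes, beside 3.16%, 24.5% and 19.2% of all genes called, so that the shares at Day 3 and Day 5 were near those of all genes. Female mice had 2 higher and 0 lower at Day 2, 1 higher and 1 lower at Day 3 and 0 of 40 at Day 5 (edgeR, adjusted p under 0.05), beside 1.93%, 5.54% and 0.258% of all genes. The regulators of NKCC2 included Sorl1, a sorting receptor, which rose in male mice by 0.60 ± 0.12 at Day 2 and 0.71 ± 0.10 at Day 3 (adjusted p = 0.0446 and 0.00598). The Day 2 call held in 2 and the Day 3 call in 8 of the 8 fits that leave out 1 mouse. Sorl1 stood at 0.53 ± 0.17 in male mice at Day 5 and, in the females, at 0.56 ± 0.20 on Day 2 and 0.67 ± 0.18 on Day 3 (adjusted p = 0.0551, 0.122 and 0.0539), and the libraries of these 3 groups also lay wholly above Day 0, as those of 13.4%, 8.14% and 9.63% of all genes tested did. At Day 5 the female value was 0.06 ± 0.20 (adjusted p = 0.897). The kinase Wnk4 and the kinase scaffold Cab39 lay between -0.74 and 0.52 in the 6 comparisons and did not pass. Of the sodium pump, the regulatory subunit Fxyd2 fell by 1.48 ± 0.27 in male and 1.93 ± 0.36 in female mice at Day 3 (adjusted p = 0.011 and 0.0465). The male call held in 7 of 8 fits that leave out 1 mouse and the female call in 2 of 8, those without Day 0 mouse 4 or Day 3 mouse 2 (adjusted p from 0.00165 to 0.168 over the 8). Its level went from 739.8 ± 320 and 1043 ± 466 FPKM at Day 0 to 264 ± 19.4 and 273 ± 42.4 FPKM. The pump subunit Atp1b1 did not pass against Day 0, at -0.31 to 1.44.

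Among receptors and signalling genes, the adenylate cyclase Adcy6 rose in male mice on all 3 days, by 1.18 ± 0.25, 1.23 ± 0.24 and 1.13 ± 0.27 (edgeR, adjusted p = 0.0457, 0.0134 and 0.0224). These calls held in 2, 7 and 3 of 8 fits that leave out 1 mouse. It stood at 1.30 ± 0.39, 1.03 ± 0.38 and 0.72 ± 0.40 in female mice (adjusted p = 0.0809, 0.111 and 0.4). The calcium-sensing receptor Casr rose in female mice at Day 2 by 1.68 ± 0.28 (adjusted p = 0.0235; 3 of 8 such fits), from 1.63 ± 0.527 to 5.19 ± 0.763 FPKM, and stood at 1.05 ± 0.41 in male mice (adjusted p = 0.13). The prostaglandin receptor Ptger3 lay between -0.23 and 0.40 and did not pass.

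Of the transcription factors of the segment, Pou3f3 and Irx1 did not pass against Day 0. Of the other transcripts, the phosphatase inhibitor Ppp1r1a fell in male mice by 0.87 ± 0.20 at Day 3 (adjusted p = 0.0221) and rose from Day 3 to Day 5 by 1.80 ± 0.32 (adjusted p = 0.00455), calls that held in 4 and 8 of 8 such fits. The protease Hpn, which processes uromodulin and is also a proximal tubule gene, fell in male mice by 0.62 ± 0.16 at Day 3 and 1.71 ± 0.36 at Day 5 (adjusted p = 0.0261 and 0.0158; 3 and 5 of 8 fits). Wfdc15b lay at -2.14 to -0.68 and did not pass against Day 0. The macula densa genes were near the limit of detection, with mean levels of 0.0554 FPKM for Nos1, 0.263 for Ptgs2 and 0.0251 for Pappa2 over the 32 libraries. Ptgs2 was called higher in male mice at Day 5 (3.62 ± 0.96, adjusted p = 0.0306; 3 of 8 fits), and Pappa2 was tested in 1 of these 6 comparisons. From Day 3 to Day 5, 11 of the 39 genes tested rose and 6 fell in male mice, where 37.9% of all genes were called, and 0 of 40 in female mice, where 0% were. At Day 3, 1 of 40 was higher and 8 were lower in male than in female mice, where 21.3% of all genes were called. Both shares in these male comparisons were near those of all genes.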

How the data were processed

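Total kidney RNA was sequenced as paired-end reads by the authors and aligned to GRCm38 according to the study's methods, while the submitters' processing notes list GRCm39 (mm39), HTSeq and DESeq2; gene positions in the files are those of GRCm38 (GENCODE M21). Aligner, versions and strand setting are not given in the sources used here. The deposited counts are raw read counts per gene for 54532 genes, and the deposited FPKM divide them by gene length (bp, also in the files) and an effective library size per library. Samples were grouped by sex and day from the labels; no sample column was left unused.

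Each of the 15 contrasts was tested on the counts in edgeR 4.0.16 under R 4.3.3, with TMM, filterByExpr and the robust quasi-likelihood F test. It used the groups it compares and all genes that passed the filter, with Benjamini-Hochberg adjustment over all of them. A call is an adjusted p under 0.05. The prior count of log2 CPM was 2, and SE is the standard error of a fitted log2 fold change. Overlap of groups was read from FPKM. DESeq2 1.42.0 was an alternative, beside its size factors in edgeR, no filter, at least 10 counts in every library, 1 fit over 8 groups, a replicate block by mouse number, a log2 fold change over 1.5, leaving out mitochondrial genes and leaving out each mouse. Leaving out mouse 4 of both Day 0 groups was added after the data were seen. The scripts were tested on simulated data.

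The members and gene lists were chosen with earlier results of these data known. Named beside the members were the 3 genes of highest mean FPKM in each list, each gene passing in at least 3 of the 6 comparisons with Day 0, and the 10 protein-coding genes most like the members' mean; Gm12927 and the sex-linked genes were added after their values were seen. Some genes under this rule are not reported here. Intervals and tests cover the spread between 4 mice a group; total counts of 16502107 to 35961325 set the counting error. Promoter sequences are from RefSeq (GRCm38.p6).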

Additional observations from a re-analysis of the deposited data

Results flagged for a closer look

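Among the 56 sets of 4 libraries (7 members in 8 groups), 3 held a library far from the other 3 in FPKM by Dixon's criterion, which flags about 1 set in 20 by chance. They were Cldn10 in male Day 0, where mouse 4 stood at 38.5 FPKM against 62.5 to 66.6, Cldn16 in male Day 2, where mouse 1 stood at 3.76 FPKM against 6.03 to 6.27, and Cldn16 in female Day 2, where mouse 3 stood at 10.3 FPKM against 8.71 to 8.95. The change of Bsnd from Day 0 to Day 5 differed between male and female mice by 1.93 on the log2 scale in the interaction term of edgeR (SE 0.35, adjusted p = 0.033, n = 4 per group), with 4 of 4 male Day 5 libraries above all male Day 0 libraries and 3 of 4 female Day 0 libraries above all female Day 5 libraries.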

How the results depend on the processing

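The number of members passing moved under these alternatives. It was 0 for male Day 2 without a filter on low counts. For the sexes at Day 3 it was 1 without the filter and 0 in 1 fit over all 8 groups, and for the sexes at Day 5 it was 0 with DESeq2 size factors, with at least 10 counts in every library and without mitochondrial transcripts. In 1 fit over 8 groups, 1 member passed for female Day 2 (Cldn10), 2 for female Day 3 and 2 for female Day 5 (Bsnd and Cldn10). DESeq2 called 1 for female Day 5 (Bsnd) and 1 for the sexes at Day 2 (Cldn16), beside 3.79% and 4.38% of all genes. With a log2 fold change over 1.5 required, 0 passed in male mice at Day 2, Day 3, Day 5 and from Day 3 to Day 5, and 0 between the sexes at Day 3 and Day 5. The share of all genes called in the fits without a filter, over 8 groups and with a replicate block is not reported here. The causes of these moves in number were not tested. Leaving out 1 mouse gave 0 to 1 members for male Day 2, 0 to 4 for male Day 3, 0 to 2 for male Day 5, 0 to 3 for each female day, 1 to 5 for male Day 3 to Day 5, 1 to 4 for the sexes at Day 3, 0 to 2 for the sexes at Day 5 and 0 to 1 for the interaction at Day 5. In these fits 0.079% to 14%, 4.18% to 38.6% and 5.38% to 26% of all genes were called on the 3 male days. For female mice it was 0.125% to 28.3%, 0% to 39.1% and 0.0483% to 12.6%. The share was 22.3% to 55.2% for male Day 3 to Day 5. Between the sexes it was 11.1% to 34.6% at Day 3 and 0% to 17% at Day 5. For the interaction at Day 5 it was 0% to 6.74%.

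With the mouse number as a replicate block, 0 members passed for male Day 2, 0 for male Day 3, 1 for male Day 5 (Cldn10), 1 for the sexes at Day 3 (Cldn16) and 0 for the sexes at Day 5, and the interaction of Bsnd at Day 5 passed (adjusted p = 0.0373). In none of 12 comparisons did all 4 same-numbered pairs deviate together with r over 0.1 (at most 3 of 4, for the sexes at Day 0, where the highest r was 0.481 and 3 mice correlated best with their own number). Whether equal numbers at Day 0 mark a shared origin is not given in the sources used here. The block turned the sign of Cldn16 in female mice from Day 0 to Day 2 (0.22), of Slc12a1 in the interactions at Day 2 (-0.028) and Day 3 (0.11) and of Cldn16 in that at Day 5 (-0.034).

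Signs turned only where neither fit passed. Cldn16 in female mice at Day 2 was 0.0090 with DESeq2, 0.016 without a filter, 0.0070 with at least 10 counts and 0.026 without mitochondrial transcripts. Without a filter Kcnj1 in female mice at Day 3 was 0.00098 and Cldn10 in the interaction at Day 3 was -0.00152, and with at least 10 counts Cldn10 in that at Day 5 was 0.0075. In 1 fit over 8 groups Slc12a1 in male mice at Day 5 was -0.012 and Cldn16 in the interaction at Day 5 was -0.031. Of the 105 log2 fold changes, 33 turned sign when a mouse was left out. The range was -0.12 to 0.54 for Umod, -0.21 to 0.26 for Cldn16 and -0.14 to 0.36 for Cldn19 in male mice from Day 0 to Day 2. The range was -0.13 to 0.52 for Umod, -0.12 to 0.36 for Cldn16 and -0.44 to 0.0896 for Cldn19 in male mice from Day 0 to Day 3. The range was -0.54 to 0.30 for Slc12a1, -0.24 to 0.24 for Cldn16 and -0.0578 to 0.48 for Cldn19 in male mice from Day 0 to Day 5. The range was -0.32 to 0.40 for Cldn16 and -0.87 to 0.00404 for Cldn19 in female mice from Day 0 to Day 2. The range was -0.22 to 0.15 for Kcnj1 and -0.0317 to 0.66 for Cldn16 in female mice from Day 0 to Day 3. The range was -0.13 to 0.34 for Slc12a1 and -0.25 to 0.46 for Cldn16 in female mice from Day 0 to Day 5. The range was -0.27 to 0.0511 for Cldn16 in male mice from Day 3 to Day 5. The range was -0.0633 to 0.80 for Umod and -0.40 to 0.20 for Slc12a1 between the sexes at Day 0. The range was -0.15 to 0.21 for Slc12a1 between the sexes at Day 2. The range was -0.75 to 0.0542 for Slc12a1, -0.0215 to 0.31 for Cldn10 and -0.11 to 0.20 for Cldn19 between the sexes at Day 5. The range was -0.23 to 0.36 for Slc12a1, -0.0876 to 0.28 for Kcnj1, -0.28 to 0.0644 for Cldn10 and -0.31 to 0.39 for Cldn16 in the interaction at Day 2. The range was -0.45 to 0.14 for Slc12a1, -0.16 to 0.20 for Cldn10, -0.49 to 0.20 for Cldn16 and -0.0765 to 0.77 for Cldn19 in the interaction at Day 3. The range was -0.72 to 0.17 for Slc12a1, -0.25 to 0.10 for Cldn10 and -0.34 to 0.32 for Cldn16 in the interaction at Day 5. In all, 1568 of 1771 recomputed values kept sign and call. Without mouse 4 of both Day 0 groups, added after the data were seen, the interaction called 0, 0 and 1 member at Day 2, Day 3 and Day 5 (Bsnd, 2.04, adjusted p = 0.0174). With 4 mice a group, the standard error of a log2 fold change reached 0.88 (Umod, interaction at Day 5).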

Other observations

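The 10 protein-coding genes whose log2 CPM was most like the mean standardized level of the 7 members, among 15038 compared over the 32 libraries, were Gpx6, Sostdc1, Mettl7a3, Fam107a, Laptm4b, Tspan1, Paqr5, Ppic, Serpina1f and C8a, with Pearson's r from 0.87 for Gpx6 and Sostdc1 to 0.75 for C8a. Sostdc1, a secreted antagonist of BMP and Wnt signalling, stood in a list of thick limb transcripts, at 11.8 to 41.2 FPKM. Over the 24 libraries of Day 0, Day 2 and Day 3, r of the 10 genes ran from 0.76 to 0.92. Among the members themselves r with this mean ran from 0.44 for Bsnd to 0.88 for Cldn19. These are descriptions of libraries that share depth, day and cell mixture, and no test was made.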
